A study of Homo sapiens with 32 samples.

Results

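The 18qE deletion was studied in 2 clones of HCT116, a cell line from a human colorectal carcinoma, against 2 HCT116 control clones whose RNA was extracted on the same day, called day D in the labels. These 4 libraries, chosen by their titles, are 4 of the 32 samples of the series, and all genes were examined in them. The 18qE clones had received Cas9-GFP with guide RNAs against a distal enhancer element, 18qE, and the control clones had received Cas9-GFP with the empty guide vector. Every population grew from a single sorted cell, so each group is 2 clones of 1 line, and any difference that a clone carried from its founder cell enters the comparison. For context, 3 HCT116 clones deleted for the element 18qNE (days A and B) and 12 control libraries (control clones 1 to 4 on 3 other days, A to C) were read alongside. The sources used here do not place the element, and RNA counts cannot show whether it is absent.

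The name places the element on the long arm of chromosome 18, where the 18q21 region around SMAD7 is associated with colorectal cancer risk, and the genes around SMAD7 were therefore examined first. SMAD7 is an inhibitor of the TGF-beta pathway: ligands bind cell surface receptors, the receptors phosphorylate SMAD2 and SMAD3, these enter the nucleus with SMAD4, and SMAD7 is induced by them and shuts the receptors off. HCT116 is a mismatch repair deficient line that has lost a functional TGFBR2 receptor and carries an activated beta-catenin, the effector of the Wnt pathway. An enhancer raises the transcription of genes that its DNA can contact, often over long distances, and its distance to SMAD7 is not known here.

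Promoter windows from RefSeq (250 bases before to 50 bases after the start, assembly GRCh38.p14) are shown for SMAD7, the gene that marks the region, and for DDIT4, a gene of the low oxygen response that was higher in both 18qE clones than in all 14 control libraries. Capitals mark GTCT and its reverse complement AGAC in the SMAD7 window, the short word that SMAD proteins bind, and ACGTG or GCGTG on either strand in the DDIT4 window, the core word of hypoxia-inducible factors. The SMAD7 window, the most upstream of 3 listed for the gene, lies at chr18:48950916-48951215 on the minus strand, and the DDIT4 window at chr10:72273674-72273973 on the plus strand.
SMAD7: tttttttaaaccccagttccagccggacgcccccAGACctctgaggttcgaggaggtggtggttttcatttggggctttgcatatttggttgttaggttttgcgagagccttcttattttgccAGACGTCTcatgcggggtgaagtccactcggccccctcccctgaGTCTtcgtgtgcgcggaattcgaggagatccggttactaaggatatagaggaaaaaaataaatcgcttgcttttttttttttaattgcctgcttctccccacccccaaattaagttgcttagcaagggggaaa
DDIT4: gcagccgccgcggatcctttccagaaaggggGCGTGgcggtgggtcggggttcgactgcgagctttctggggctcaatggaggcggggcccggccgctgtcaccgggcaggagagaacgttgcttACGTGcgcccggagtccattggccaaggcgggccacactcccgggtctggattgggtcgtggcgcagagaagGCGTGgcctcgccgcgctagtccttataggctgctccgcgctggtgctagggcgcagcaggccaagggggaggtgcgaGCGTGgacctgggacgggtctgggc
The SMAD7 window holds AGAC 2 times and GTCT 2 times, with an AGAC directly followed by a GTCT in the middle of the window, and 84% of the 35116 windows in the table hold either word. The DDIT4 window holds ACGTG 1 time and GCGTG 3 times, and 48.4% of all windows hold either on either strand. A match describes the letters and not a bound site.

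Gene counts totalled 24887785 and 23087502 in the 18qE libraries and 24733705 and 22972412 in the control libraries, and the expression values below are TMM-scaled CPM, a depth-scaled count. Reads aligned at several places made up 18.5% to 24.8% of counted reads in the 18qE libraries and 15.6% to 18.8% in the control libraries, the highest share being that of 18qE clone 2. Of the 12 colorectal epithelial markers 5 were under 1 CPM on day D, namely the intestinal genes CDH17, VIL1, TSPAN8, LGALS4 and GPA33, which stood at 0 to 0.365 CPM. The 12 had summed levels of 5749 and 5349 CPM in the 18qE libraries and 6442 and 5857 CPM in the control libraries. The 14 leukocyte markers summed to 5.23 and 4.36 CPM in the 18qE libraries and 3.58 and 4.38 CPM in the control libraries, with CD3D, CD3E, MS4A1 and PTPRC at 0 in all 4. Fibroblast markers summed to 14.04 and 23.4 CPM in 18qE and 16.7 and 22.7 CPM in control, with COL1A2, FAP, LUM and POSTN at 0.

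Some genes went against the clone numbers of the 2 control libraries. Each was given a clone number that also appears on days A to C, and genes that set a control clone apart on those days were looked up on day D. Of 11 genes that separated control clone 4 from the other 3 control clones by a gap of at least 2-fold on days A to C, the library labelled control clone 1 lay on clone 4's side for 11, the library labelled control clone 2 for 6, 18qE clone 1 for 3 and 18qE clone 2 for 5. ZNF91, a zinc finger repressor of retrotransposons, stood at 0.0833 CPM in the library labelled control clone 1 and at 12.4 CPM in the library labelled control clone 2, while on days A to C it ranged from 0.0760 to 0.406 CPM in clone 4 and from 10.6 to 18.6 CPM in clones 1 to 3. Of 32 genes that set clone 1 apart by any gap, the library labelled control clone 1 lay on clone 1's side for 5. Of 42 genes that set clone 2 apart by any gap, the library labelled control clone 2 lay on clone 2's side for 5. PRPS1, an enzyme of nucleotide synthesis, was at 6.75 CPM in the library labelled control clone 2 and at 99.2 CPM in the library labelled control clone 1. On days A to C that gene was low in clone 3 (6.15 to 7.80 CPM) and high in the other clones (28.8 to 102.5 CPM), but only 5 of 20 clone 3 genes with a 2-fold gap put the library labelled control clone 2 on clone 3's side. These marker genes were picked after their values were seen, and which clone each day D control came from was not tested further.

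The library labelled control clone 2 also had low expression over the end of the long arm of chromosome 1. Over 39 tested genes from RBM34 to PGBD2 its median log2 difference from the library labelled control clone 1 was -0.61, with 32 of 39 genes lower, whereas 18qE clone 1 and 18qE clone 2 were at 0.08 and 0.07 against the same library. Control clone 2 was at 0.18 on day A, -0.01 on day B and -0.02 on day C, each against control clone 1 of the same day. In the comparison of 18qE with control the block had a median log2 of 0.38, which was 0.13 without the library labelled control clone 2 and 0.80 without the library labelled control clone 1. Neither 18qE clone had a stretch of 31 neighbouring genes with a median beyond 0.4 against the library labelled control clone 1 on any chromosome. Against the library labelled control clone 2, 18qE clone 1 had 14 such stretches and 18qE clone 2 had 10, the highest on chromosome 1 (0.88 and 0.80). The lowest for 18qE clone 1 was -0.48 on chromosome 6, from GPLD1 to PRSS16. Between the 18qE clones 6 stretches lay beyond 0.4, the lowest for 18qE clone 1 minus 18qE clone 2 at -0.40 on chromosome 6, from SDHAF4 to DOP1A. Their cause was not tested. None of the 20 genes named first below lies in the block of chromosome 1.

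**Figure D1:**
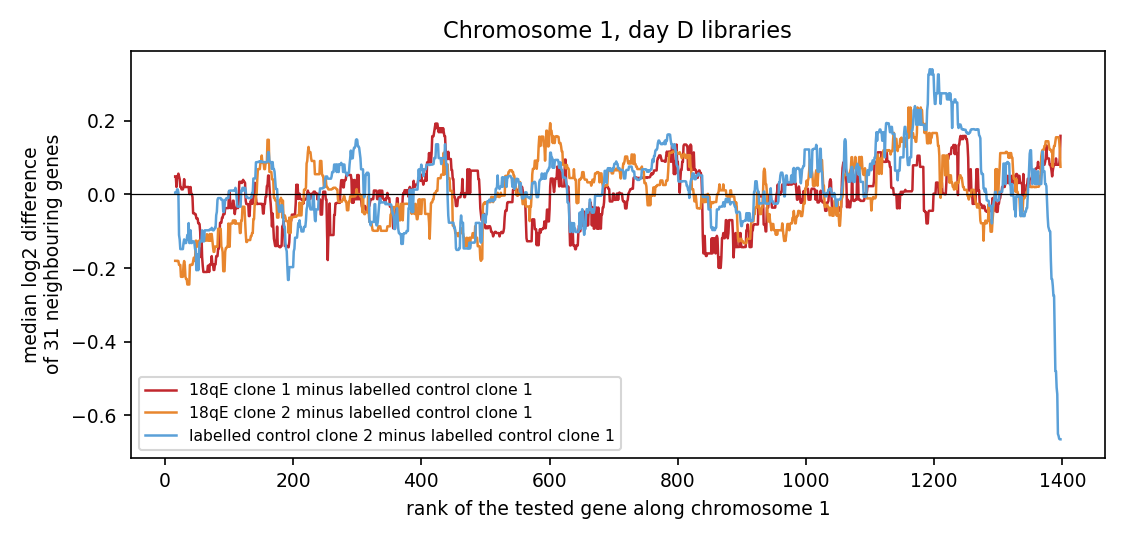
Running median, over 31 neighbouring tested genes along chromosome 1 (x axis: gene rank, no positions), of the log2 difference (y axis) of 18qE clone 1, 18qE clone 2 and the library labelled control clone 2, each against the library labelled control clone 1. The 18qE lines stay near 0 throughout, and the line of the library labelled control clone 2 drops to -0.66 at the distal end.

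SMAD7 did not differ between the groups beyond the spread of the clones. Its level was 9.70 and 10.1 CPM in 18qE, against 10.2 and 10.03 CPM in control. The log2 difference was -0.03 (SE 0.22, 95% interval -0.55 to 0.49), and the groups overlapped. Shifts within that interval were not resolvable with 2 clones a group. The control libraries of days A to C ranged from 5.87 to 12.4 CPM, a spread that contains all 4 day D libraries.

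Of 21 tested genes, SMAD7 with 10 neighbours on each side, none passed the test, and log2 differences ran from -0.31 to 1.37. The largest belonged to LIPG, an endothelial-type lipase, which was scarcely expressed at 0.975 and 0.705 CPM in 18qE and 0.4998 and 0.137 CPM in control (log2 1.37, 95% interval -0.05 to 2.78). Adjacent to SMAD7, CTIF, a translation initiation factor for nuclear mRNA, had 16.7 and 23.0 CPM in 18qE and 17.99 and 20.02 CPM in control, and DYM, a Golgi protein, 38.4 and 40.4 CPM in 18qE and 38.4 and 39.1 CPM in control. CXXC1, which binds unmethylated CpG and recruits a histone methyltransferase, was the only neighbour with both 18qE libraries below both controls, at 75.6 and 74.0 CPM in 18qE and 88.5 and 90.7 CPM in control (log2 -0.25, 95% interval -0.58 to 0.07). MYO5B, a motor of recycling vesicles, was above both controls at 62.3 and 65.3 CPM in 18qE against 59.6 and 57.8 CPM in control. Over a wider list of 34 tested genes of 18q21 the median log2 was 0.04, with 5 genes above both controls (14.7%, against 12.8% of all genes) and 2 below (5.88%, against 14.1%). Without 18qE clone 2 that median was -0.01. Over all 186 tested genes of chromosome 18 the median was 0.08, the highest among the autosomes and X. The next was 0.04 on chromosome 4, and the lowest was -0.05 on chromosome 19. Differences between chromosomes were not tested.

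**Figure D2:**
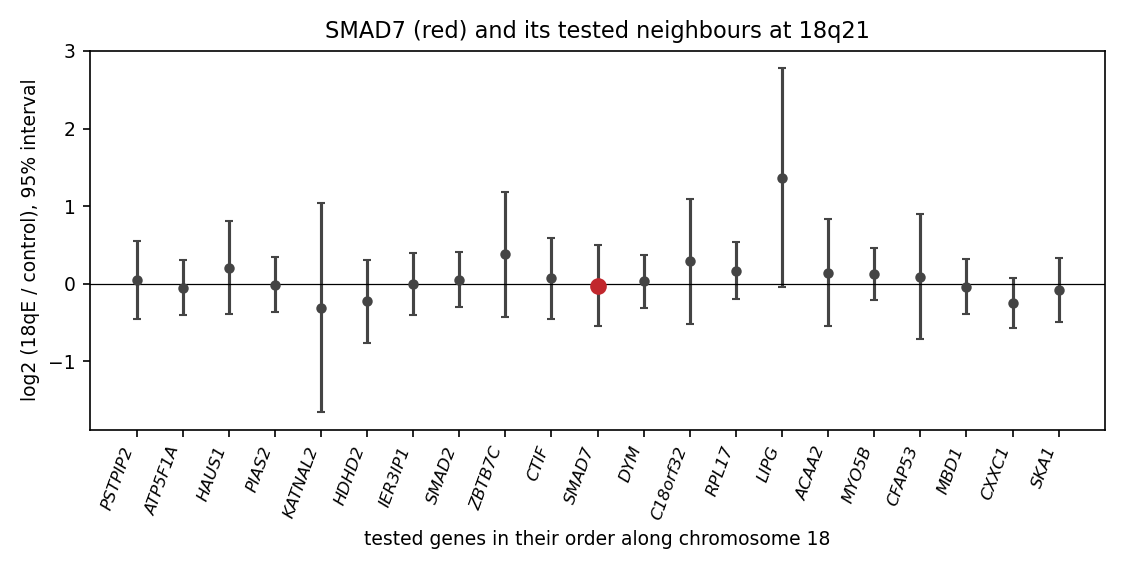
log2 of 18qE over control on day D (points, y axis) with 95% intervals from edgeR (bars) for SMAD7, in red, and 10 tested genes on each side in their order along chromosome 18 (x axis). All 21 intervals include 0, and SMAD7 lies at -0.03.

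Among 19 SMAD proteins and regulators none passed the test, and 2 had an unadjusted p under 0.05, as did 2.56% of all genes. SMAD2 and SMAD4, which also lie on the long arm of chromosome 18, had log2 differences of 0.05 (SE 0.15) and -0.13 (SE 0.16). SMAD4 stood at 42.0 and 48.2 CPM in 18qE and 46.9 and 52.5 CPM in control, all 4 below the 54.9 to 68.0 CPM of the control libraries of days A to C. SMAD3, the other receptor-activated SMAD of the TGF-beta branch, was at 56.7 and 59.9 CPM in 18qE and 77.0 and 76.3 CPM in control (log2 -0.39, SE 0.14). SMURF2, a ubiquitin ligase that SMAD7 brings to the receptor, was at 257 and 179 CPM in 18qE and 151 and 159 CPM in control (log2 0.49, SE 0.19). Neither passed after adjustment. MYC, at 614 and 384 CPM in 18qE and 482 and 528 CPM in control, had a log2 difference of -0.01 (SE 0.22), and its 18qE libraries lay on either side of the controls.

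Across all genes no difference passed the test. Of 15261 genes tested with edgeR, 0 were called at an adjusted p under 0.05 (0.00%), and the lowest adjusted p was 0.9999. At an unadjusted p under 0.05 there were 391 genes (2.56%), of which 256 had the higher mean in 18qE (1.68%) and 135 the lower (0.885%). Both 18qE libraries lay above both controls for 1948 genes (12.8%) and below both for 2148 genes (14.1%). Without TMM scaling these counts were 1618 (10.6%) and 2540 (16.6%). DESeq2 called 20 of 20829 genes (0.0960%), 17 higher in 18qE (0.0816%) and 3 lower (0.0144%). When a single 18qE library was left in the fit and its spread taken from the controls, edgeR called 107 genes without 18qE clone 1 and 132 without 18qE clone 2, against 1 gene without the library labelled control clone 1 and 0 without the library labelled control clone 2.

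The 18qE clones were compared with each other as a description, with no test. Among genes at 5 CPM or more, 366 of 11136 (3.29%) differed 2-fold or more between 18qE clone 1 and 18qE clone 2. Between an 18qE and a control library the number was 164 to 256 (1.48% to 2.31%), and between the 2 control libraries it was 131 (1.18%). The 18qE clones lay farther from each other than any 18qE clone lay from any control on this count.

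**Figure D3:**
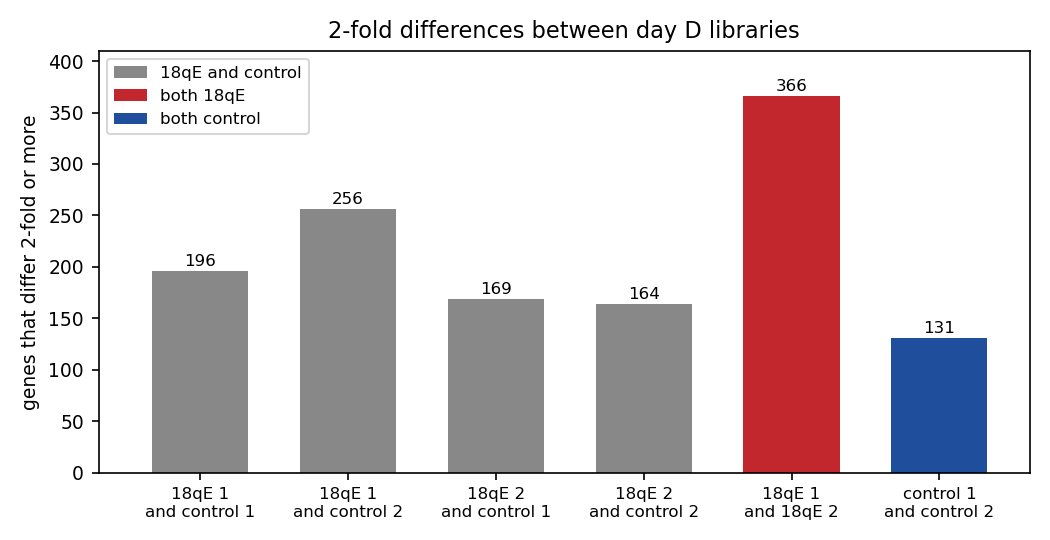
Number of genes that differed 2-fold or more in TMM-scaled CPM (y axis, from 0) for each of the 6 pairs of day D libraries, among genes at 5 CPM or more. The pair of 18qE clones has 366 such genes, more than the 164 to 256 of the pairs of 18qE with control and the 131 of the control pair.

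The genes with the smallest p and higher in both 18qE clones included epithelial and stress genes, none of which passed the edgeR test. KRT6A, a keratin of activated and stratified epithelium, was at 10.8 and 11.9 CPM in 18qE and 2.58 and 3.19 CPM in control (log2 1.98, SE 0.27, 95% interval 1.35 to 2.60). Its level in control libraries of days A to C ran from 0.443 to 31.4 CPM with a median of 14.5, and both day D controls lay below that median. In a bulk library, more cells that express a gene and more RNA per cell cannot be told apart. HAS3, which makes hyaluronan, was at 329 and 331 CPM in 18qE and 169 and 198 CPM in control (log2 0.85, SE 0.15), above the 118 to 224 CPM of days A to C. DDIT4, an inhibitor of mTOR signalling that is induced by low oxygen and other stress, was at 119 and 234 CPM in 18qE and 68.5 and 60.4 CPM in control (log2 1.47, SE 0.30), above the 28.9 to 83.8 CPM of days A to C. HAS3 and DDIT4 were the only 2 of the 10 whose 18qE libraries both exceeded all 14 control libraries.

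For the remaining 8 of the 10, at least 1 18qE library lay within the range of the control libraries. NDRG1, another gene that responds to low oxygen, was at 178 and 237 CPM in 18qE and 74.3 and 112 CPM in control (log2 1.16, SE 0.24), with a highest control library of 271 CPM on days A to C. EHF, a transcription factor of epithelia, was at 75.4 and 48.7 CPM in 18qE and 31.6 and 26.9 CPM in control (log2 1.09, SE 0.22). PRKD3, a kinase of the protein kinase D family, had 30.6 and 43.6 CPM in 18qE and 12.8 and 18.9 CPM in control. ZNF608 and CNTNAP2, a zinc finger protein and a neurexin-related adhesion molecule, had log2 differences of 2.38 (SE 0.36) and 2.43 (SE 0.39), and for both every control library of days A to C lay above both day D controls. STXBP6, a binder of the vesicle fusion protein syntaxin, had 234 counts in the 18qE libraries and 2 in the control libraries, a ratio of 119 (95% counting interval 32.5 to 986). It stood at 8.95 CPM in 18qE clone 1 and 1.41 CPM in 18qE clone 2, and it is 1 of the 11 genes above that separated control clone 4 on days A to C. The library labelled control clone 1 was at 0 and the library labelled control clone 2 at 0.0912 CPM.

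None of the 10 genes with the smallest p and lower in both 18qE clones passed in edgeR. MSX2, a homeobox gene that BMP signals induce, was at 25.03 and 32.4 CPM in 18qE and 58.1 and 89.2 CPM in control (log2 -1.35, SE 0.24), within the 13.5 to 92.8 CPM of days A to C. TAGLN, an actin-binding protein of contractile cells, was at 4.87 and 7.32 CPM in 18qE and 22.1 and 14.9 CPM in control (log2 -1.59, SE 0.31). ZFP36L1, which speeds the decay of mRNAs with AU-rich ends, was at 181 and 259 CPM in 18qE and 481 and 376 CPM in control (log2 -0.96, SE 0.22). AXIN2, a feedback inhibitor and standard target of the Wnt pathway, was at 28.1 and 21.2 CPM in 18qE and 39.1 and 49.7 CPM in control (log2 -0.84, SE 0.20), below the 34.0 to 114 CPM of all control libraries of days A to C.

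GNE, which makes the precursor of sialic acid, was at 15.9 and 16.6 CPM in 18qE and 25.9 and 26.8 CPM in control, with at least 19.6 CPM on days A to C. FADS3, of the fatty acid desaturase family, was at 31.3 and 35.1 CPM in 18qE and 49.8 and 51.3 CPM in control. DENND5B, a regulator of Rab proteins, and S100A4, a calcium-binding protein of motile cells, had log2 differences of -0.62 (SE 0.17) and -0.70 (SE 0.19). AXIN2, GNE, FADS3, DENND5B and S100A4 were the 5 of the 10 genes whose 18qE libraries lay below all 14 control libraries. The margin was narrow for FADS3, at 35.1 CPM in 18qE clone 2 against 35.4 CPM in the lowest control library. It was also narrow for S100A4, at 69.2 and 53.1 CPM in 18qE against 69.7 CPM in the lowest control library. Including HAS3 and DDIT4, 7 of the 20 genes lay beyond all control libraries, against 416 of all 15261 genes (2.73%); the 20 were selected on 4 of the libraries that enter this count. The remaining genes, ADORA1, an adenosine receptor, and H19, an imprinted noncoding RNA, had log2 differences of -1.06 (SE 0.27) and -0.99 (SE 0.26). Of the 20, 13 were called by edgeR in a test of differences among the 4 control clones on days A to C, in which 1158 of 14685 genes were called (7.89%). That total was 308 without day C, 860 without day B and 1694 without day A.

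**Figure D4:**
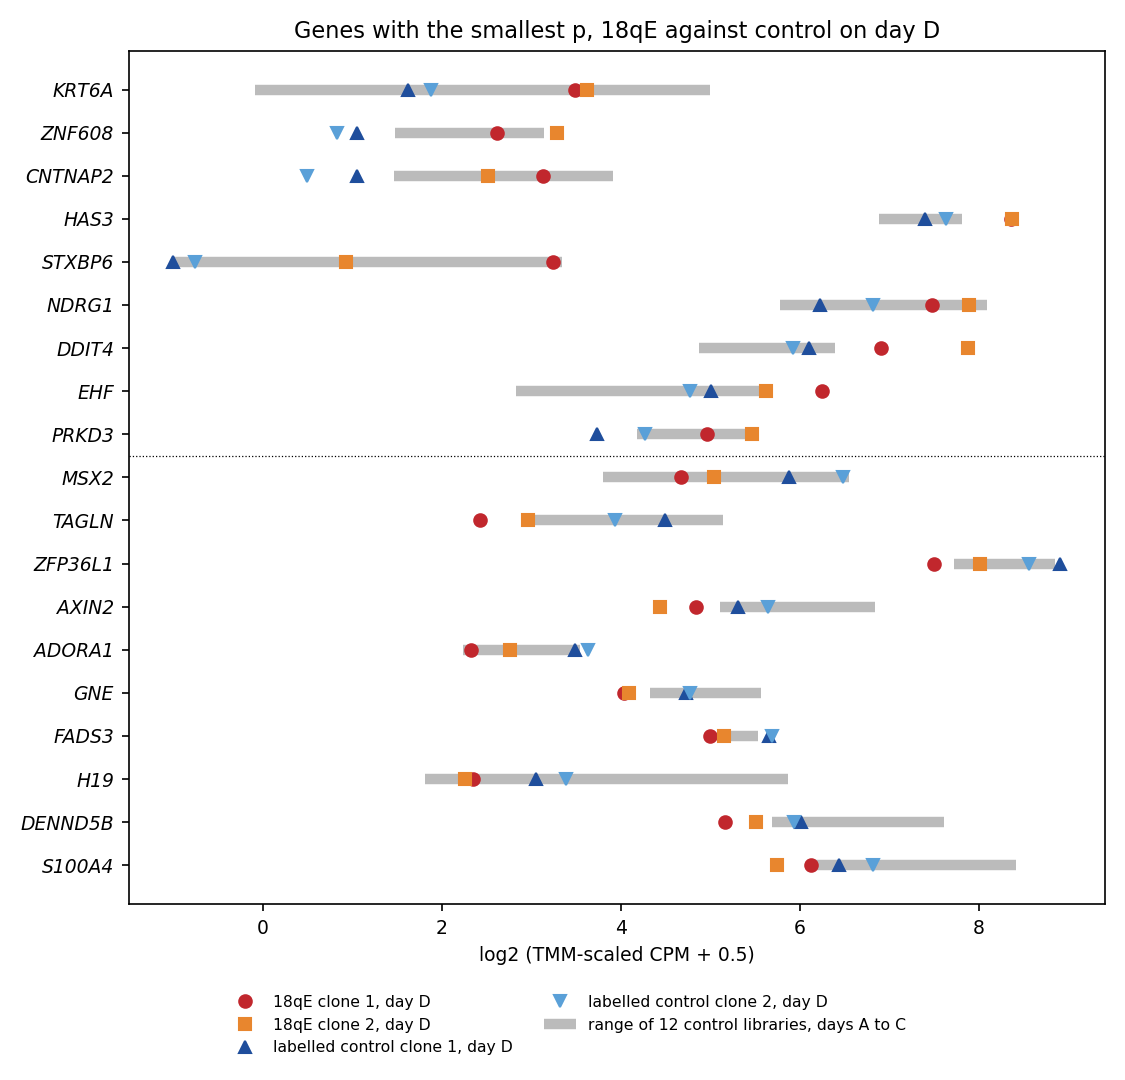
Level of the genes named above with the smallest p (those higher in 18qE above the dotted line, those lower below it) as log2 of TMM-scaled CPM plus 0.5 (x axis) in 18qE clones 1 and 2 and in the 2 day D control libraries, with the range of the 12 control libraries of days A to C as grey bars. The 18qE points leave the grey bar on the side away from the controls in both clones for HAS3, DDIT4, AXIN2, GNE, FADS3, DENND5B and S100A4.

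DESeq2 called 18 genes with a symbol, 12 of them among the 20 above. The others included DSC3, FGF2, PRDM1, TTC22 and GFY. DSC3, a desmosomal cadherin, was at 15.3 and 37.2 CPM in 18qE and 7.29 and 8.98 CPM in control (DESeq2 adjusted p = 0.00417). FGF2, a fibroblast growth factor, was at 20.7 and 9.08 CPM in 18qE and 5.04 and 4.42 CPM in control (DESeq2 adjusted p = 0.0143). PRDM1 is a transcriptional repressor. In edgeR the adjusted p of these genes was 0.9999. On days A to C the control libraries ran from 5.78 to 27.5 CPM for FGF2, a range that holds both 18qE libraries. FGF2, TTC22 and CNTNAP2 were low in control clone 4 on those days, and ZFP36L1 and HAS3 were high there. Of the 20 genes called by DESeq2, 3 lay beyond all 14 control libraries, namely HAS3, DDIT4 and GFY.

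Genes of the hypoxia response, which hypoxia-inducible factors switch on to raise glucose uptake, glycolysis and vessel growth, were higher on average in 18qE, with 0 of 26 called by edgeR and 2, DDIT4 and NDRG1, by DESeq2. All 26 tested members had a positive log2, and the median was 0.65, against 0.00 over all genes. Both 18qE libraries lay above both controls for 9 of the 26 (34.6%, against 12.8% of all genes), and 9 had an unadjusted p under 0.05. The median was 1.26 without 18qE clone 1 and -0.06 without 18qE clone 2. In 18qE clone 2, 25 of the 26 members exceeded both controls, as did 4795 of all 15261 genes. In 18qE clone 1, 10 of the 26 did, as did 5456 of all 15261 genes. Summed levels were 1927 CPM in 18qE clone 1 and 2911 CPM in 18qE clone 2, against 1383 and 1655 CPM in the control libraries, 1144 to 2022 CPM in the control libraries of days A to C and 1689 to 2768 CPM in the 18qNE clones.

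The members differed in which clone carried them. Some were above both controls in both 18qE clones. SLC2A1, the main glucose transporter, was at 576 and 607 CPM in 18qE and 393 and 387 CPM in control (log2 0.61, SE 0.15). HK2, which traps glucose in the cell, was at 200.003 and 214 CPM in 18qE and 91.2 and 142 CPM in control (log2 0.83, SE 0.22). VEGFA, the vessel growth factor, was at 105 and 89.2 CPM in 18qE and 68.4 and 59.6 CPM in control. These 3, the glucose transporter SLC2A3 (2.84 and 3.44 CPM in 18qE, 0.958 and 1.23 CPM in control) and DDIT4 exceeded all 14 control libraries in both 18qE clones. SLC2A1 was also high in the 18qNE clones, at 554 to 767 CPM.

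Other members were above both controls in 18qE clone 2 and not in 18qE clone 1. ADM, a vasodilator peptide, was at 29.1 CPM in 18qE clone 1 and 142 CPM in 18qE clone 2, against 39.4 and 62.0 CPM in control. BNIP3L, a mitophagy receptor, was at 29.8 CPM in 18qE clone 1 and 145 CPM in 18qE clone 2, against 47.8 and 65.4 CPM in control. PFKFB4, a regulator of glycolysis, was at 17.2 and 72.7 CPM in the same order, against 23.4 and 36.6 CPM in control. CA9, a carbonic anhydrase that is a standard marker of low oxygen, was at 1.55 CPM in 18qE clone 1 and 9.48 CPM in 18qE clone 2, against 1.04 and 1.60 CPM in control. In all, 24 of the 26 members were higher in 18qE clone 2 than in 18qE clone 1. The 20 tested glycolysis genes had a median log2 of 0.19, with 6 above both controls (30%, against 12.8% of all genes) and 0 below, and the median was 0.33 without 18qE clone 1 and 0.09 without 18qE clone 2.

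Target genes of ATF4, the factor that answers amino acid shortage and endoplasmic reticulum stress, showed the opposite split between the clones. Of 26, 0 were called by edgeR and 1, DDIT4, by DESeq2. In all, 25 of the 26 were higher in 18qE clone 1 than in 18qE clone 2. In the fit the list had a median log2 of 0.26, which was -0.50 without 18qE clone 1 and 0.85 without 18qE clone 2. As differences of single libraries from the control mean, the median was 0.88 in 18qE clone 1 and -0.49 in 18qE clone 2. CHAC1, a glutathione-degrading enzyme, was at 57.9 CPM in 18qE clone 1 and 2.82 CPM in 18qE clone 2, and the controls were at 25.9 and 4.74 CPM. ASNS, asparagine synthetase, was at 412 and 63.9 CPM in the 18qE clones and at 348 and 66.2 CPM in the controls. TRIB3, a pseudokinase that dampens this response, was at 185 and 43.9 CPM in the 18qE clones and at 75.5 and 42.0 CPM in the controls. The controls differed in the same manner, with a median of 0.51 for the library labelled control clone 1 over the library labelled control clone 2. Summed over the list, 18qE clone 1 had 8651 CPM and 18qE clone 2 had 3446 CPM, against 5826 and 3715 CPM in the day D controls and 2772 to 4639 CPM in the controls of days A to C.

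**Figure D5:**
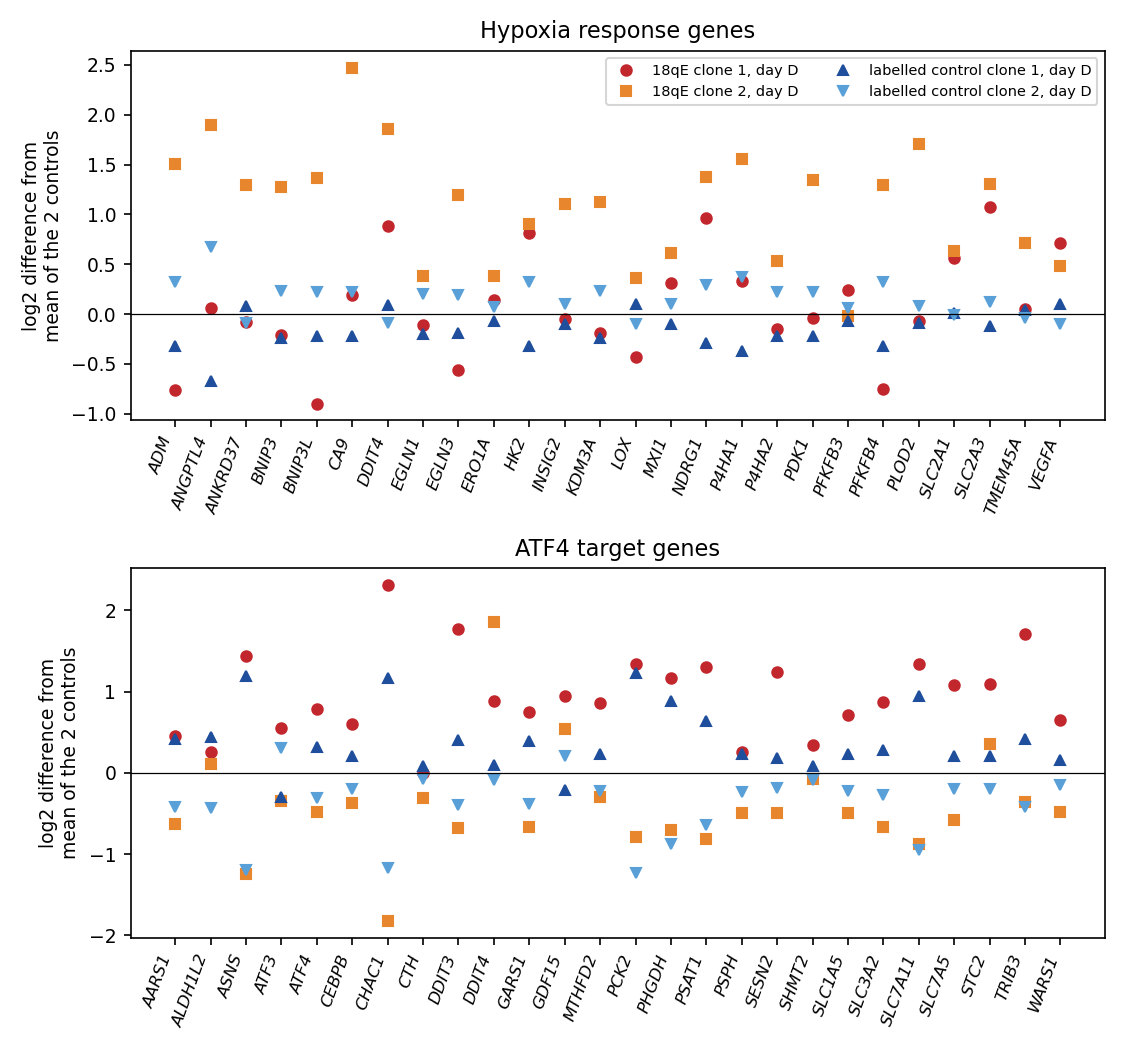
log2 difference from the mean of the 2 day D controls (y axis, from TMM-scaled CPM plus 0.5) for each tested member (x axis) of the hypoxia list, above, and the ATF4 list, below, in the 4 day D libraries. 18qE clone 2 exceeds 18qE clone 1 for 24 of 26 hypoxia genes, and 18qE clone 1 exceeds 18qE clone 2 for 25 of 26 ATF4 targets.

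All 77 ribosomal protein genes were higher in 18qE clone 1 than in 18qE clone 2 (72 of 77 without TMM scaling), with a median log2 difference of 0.25, and 53 of 55 ribosome biogenesis genes were higher there, with a median of 0.46. Between the library labelled control clone 1 and the library labelled control clone 2 the medians were 0.18 for ribosomal proteins and -0.11 for ribosome biogenesis, so the controls differed nearly as much in ribosomal protein genes. Over all genes 52.6% were higher in 18qE clone 1. The median over all genes between these clones was 0.02 with TMM scaling and -0.08 without. RRP9, a component of the complex that processes ribosomal RNA, was at 129 CPM in 18qE clone 1 and 72.0 CPM in 18qE clone 2, against 95.2 and 97.0 CPM in control. Of 19 targets of YAP and TEAD, which answer cell contact and tension, 18 were higher in 18qE clone 1, among them AMOTL2, an angiomotin that restrains YAP, at 59.9 CPM in 18qE clone 1 and 14.2 CPM in 18qE clone 2, against 24.4 and 23.5 CPM in control. These counts describe 2 libraries and are no test.

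The largest single-gene differences between the 18qE clones, at 5 CPM or more, were taken as a description with 95% counting intervals. After CHAC1 (20.5-fold, 15.98 to 26.8), KRTAP2-3, a keratin-associated protein, was 8.64-fold higher in 18qE clone 1 (5.42 to 14.5) and F3, the tissue factor that starts clotting, 8.50-fold (7.83 to 9.23). F3 stood at 243 CPM in 18qE clone 1 and 28.6 CPM in 18qE clone 2, against 34.8 and 36.7 CPM in control, and its highest level in the other controls was 119 CPM. In the other direction DPYSL5, a brain-expressed protein of the cytoskeleton, was 11.97-fold higher in 18qE clone 2 (8.51 to 17.3). It stood at 1.60 CPM in 18qE clone 1 and 19.1 CPM in 18qE clone 2, against 18.1 and 18.2 CPM in the day D controls and 15.0 to 30.2 CPM in the controls of days A to C, so that 18qE clone 1 was the only low library. PKIB, an inhibitor of protein kinase A, was 8.79-fold higher in 18qE clone 2, and MIR210HG, the host transcript of a microRNA that low oxygen induces, 8.37-fold (5.68 to 12.8). FBLN5 and SCG2 followed with 6.80-fold and 6.49-fold. ZBED2 and SCUBE1 were 7.83-fold and 7.21-fold higher in 18qE clone 1.

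The medians of the epithelial junction list and the mesenchymal list leaned in opposite directions. Of 33 tested epithelial junction genes, 12 lay above both controls in both 18qE clones (36.4%, against 12.8% of all genes) and 3 below, with a median log2 of 0.24. Without 18qE clone 1 the median was 0.39, and without 18qE clone 2 it was 0.07. For 1 of the 33 both 18qE libraries exceeded all 14 control libraries, as for 195 of all 15261 genes. E-cadherin (CDH1), which joins epithelial cells, was at 83.4 and 124 CPM in 18qE and 64.7 and 60.7 CPM in control (log2 0.73, SE 0.21). GRHL2, a transcription factor that maintains epithelium, was at 36.4 and 49.3 CPM in 18qE and 29.8 and 23.4 CPM in control (log2 0.69, SE 0.21). On days A to C GRHL2 ranged from 12.5 to 21.3 CPM in control clone 3 and from 35.5 to 47.2 CPM in the other control clones. Both day D controls lay below that second range. CLDN7, a tight junction claudin, was at 163 and 124 CPM in 18qE and 114 and 93.0 CPM in control. KRT20, an intestinal keratin, was at 3.37 and 3.35 CPM in 18qE and 1.12 and 1.19 CPM in control, and it is another of the genes that set control clone 4 apart on days A to C. KRT8, KRT19 and OVOL2 were the 3 members below both controls. Summed over the list, levels were not higher in 18qE, at 8758 and 8707 CPM against 9159 and 8733 CPM in control. The colorectal epithelial markers went the other way. Of 7 tested, 2 lay above both controls (28.6%) and 3 below (42.9%), with a median log2 of -0.11.

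Of 26 mesenchymal genes only 9 were expressed enough to test, and 5 lay below both controls and 0 above, with a median log2 of -0.70. The 5 are 55.6% of those tested, against 14.1% of all genes. For 1 of the 9 both 18qE libraries lay below all 14 control libraries, as for 221 of all 15261 genes. VIM, the filament protein of mesenchymal cells, was barely expressed at 0.310 and 0.0441 CPM in 18qE and 2.87 and 0.866 CPM in control (log2 -3.37, SE 0.84). ZEB1, a repressor of E-cadherin, was at 3.06 and 1.499 CPM in 18qE and 4.62 and 6.38 CPM in control (log2 -1.27, SE 0.39). The receptor kinase AXL was at 52.5 and 24.1 CPM in 18qE and 65.1 and 64.4 CPM in control. Both day D controls exceeded the 22.1 to 41.9 CPM that the controls of days A to C showed. TAGLN and S100A4 were the others. In the 18qNE clones the median of the epithelial list was 0.10 and that of the mesenchymal list -0.06.

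Signalling lists around SMAD7 gave mixed members. Of 29 tested TGF-beta induced genes, 4 lay above both controls (13.8%, against 12.8% of all genes) and 5 below (17.2%, against 14.1%). Their median was 0.05, and it ran from -0.07 to 0.19 on leaving out each library. JUNB, an early response transcription factor, was at 92.9 and 128 CPM in 18qE and 65.7 and 85.7 CPM in control (log2 0.55, SE 0.21), and ITGA2, a collagen receptor, at 112 and 154 CPM in 18qE and 62.1 and 99.8 CPM in control. Among 21 ligand and receptor genes, GDF15, a stress-induced ligand of the family, was at 145 and 110 CPM in 18qE and 65.3 and 87.3 CPM in control (log2 0.75, SE 0.20). LTBP4 and LTBP3, which hold latent TGF-beta in the matrix, had log2 differences of -0.45 (SE 0.15) and -0.34 (SE 0.14). TGFBR2 was at 38.7 and 40.1 CPM in 18qE and 39.6 and 56.8 CPM in control. Of 19 Wnt targets, 5 lay above both controls (26.3%, against 12.8% of all genes) and 3 below (15.8%, against 14.1%), with a median of 0.13 that was 0.07 without 18qE clone 2. CD44, a hyaluronan receptor, was at 610 and 577 CPM in 18qE and 397 and 423 CPM in control (log2 0.54, SE 0.15), on the other side of 0 from AXIN2. DKK1, a secreted Wnt inhibitor, was at 600 and 249 CPM in 18qE and 129 and 226 CPM in control, and it too is among the genes that were low in control clone 4.

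The other lists are read beside the 12.8% of all genes above both controls and the 14.1% below. Among 30 immediate early genes 8 lay above (26.7%) and 0 below, with a median of 0.15 that was 0.03 without 18qE clone 1 and 0.01 without the library labelled control clone 1, with EGR1 at 79.4 and 44.7 CPM in 18qE and 40.0 and 27.1 CPM in control. Of 23 genes of the unfolded protein response 7 lay above (30.4%) and 0 below, with a median of 0.11 that was 0.18 without the library labelled control clone 1. Of 47 DNA replication genes 3 lay above (6.38%) and 14 below (29.8%), with a median of -0.05 that was -0.12 without 18qE clone 1 and 0.03 without 18qE clone 2. Of 44 nuclear genes of oxidative phosphorylation 2 lay above (4.55%) and 11 below (25%), with a median of -0.05 that ran from -0.10 to 0.02 on leaving out each library. The 17 tested heat shock genes had 0 above and 4 below (23.5%), with 11 positive and 6 negative log2 differences. Their median of 0.02 was -0.07 without 18qE clone 1 and 0.09 without 18qE clone 2. Among the negative members, HSPA1B and HSPA1A had log2 differences of -0.52 (SE 0.16) and -0.66 (SE 0.26). These 2 genes are near-identical copies whose reads cannot be assigned with certainty. Metallothionein genes, also a family of close copies, had a median of -0.45 over 5 members, which was -0.17 without the library labelled control clone 1, with MT2A at 179 and 142 CPM in 18qE and 312 and 218 CPM in control. Summed metallothionein levels were 409 and 296 CPM in 18qE and 591 and 431 CPM in control. The control libraries of days A to C summed to 127 to 456 CPM, a range that holds both 18qE libraries. Of 13 NF-kB targets and chemokines 2 lay above (15.4%) and 6 below (46.2%), with a median of -0.17 that was -0.01 without 18qE clone 1. The NF-kB subunit RELB was at 11.9 and 10.2 CPM in 18qE and 15.5 and 26.8 CPM in control. The lists of mitosis, p53 targets, cholesterol synthesis and interferon response had medians of 0.05, -0.02, 0.00 and -0.06. Those of BMP signalling, MYC targets, MAPK feedback, Notch genes, MHC class I presentation, fatty acid synthesis and the proteasome had medians of 0.10, 0.04, 0.23, 0.17, 0.08, -0.01 and 0.02. For each of these 11 lists leaving out 1 library moved the median by over 1.5 times or turned its sign. The median of MAPK feedback was 0.00 without 18qE clone 1 and 0.40 without 18qE clone 2, that of BMP signalling 0.30 and -0.06 and that of MYC targets -0.09 and 0.17. The 9 tested histone genes had a median of -0.44, with 4 below both controls (44.4%) and 0 above. That median was -0.02 without 18qE clone 1 and -0.87 without 18qE clone 2. In the 18qNE clones the histone median over control was -0.42. Summed histone levels were 23.5 and 31.7 CPM in 18qE and 40.3 and 40.7 CPM in control. The control libraries of days A to C summed to 19.3 to 42.4 CPM, a range that holds both 18qE libraries.

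Both elements carry names of chromosome arm 18q, and the difference of their effects, each taken against the controls of its own days, was tested in 1 fit. No gene of 15257 passed (0.00%), and 330 had an unadjusted p under 0.05 (2.16%). Libraries of a control clone on several days entered separately, which makes these p-values too small. SMAD7 had a log2 of 0.36 for 18qNE over control, and the 18qE effect minus the 18qNE effect was -0.39 (SE 0.27). HAS3 was at 160 to 340 CPM in the 18qNE clones with a median of 322 CPM, so the level of the 18qE clones was reached there too, and the difference of effects was 0.13 (SE 0.36). DDIT4 was at 19.1 to 115 CPM in the 18qNE clones, with a difference of 1.43 (SE 0.58), and TAGLN at 4.45 to 27.5 CPM, with a difference of -1.49 (SE 0.40). ZNF608 was at 6.94 to 14.02 CPM in the 18qNE clones and at 2.28 to 8.34 CPM in the control libraries of days A to C. All of these exceeded the 1.58 and 1.28 CPM of the day D controls. Against the controls of its own days the 18qNE log2 was 1.30, and the difference of effects was 1.06 (SE 0.52).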

How the data were processed

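RNA was prepared with Trizol and single-end libraries were sequenced, per the labels' protocols. The authors deposited 1 file per library, holding raw read counts for each gene with no normalization. Per the submitters' processing notes, TopHat2, HTSeq 0.6.1 and Partek 3 were among the tools and hg19 was the build; no source used here says whether counting used strand, so overlapping and antisense genes cannot be separated. Each file listed 57820 genes, 51996 with a symbol from NCBI tables, and 5 summary lines, which stayed out of library sizes. In the day D libraries reads outside genes made up 6.34% to 7.21% of counted reads, ambiguous reads 2.86% to 3.36% and multiply aligned reads 15.6% to 24.8%. Gene order and promoter sequences came from RefSeq tables of GRCh38.p14. The files use another build, and no gene coordinates were taken across.

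The main test was the 2-sided quasi-likelihood test of edgeR 4.0.16 under R 4.3.3, on TMM factors and genes kept by filterByExpr at 10 counts, with p adjusted by Benjamini-Hochberg over all genes tested, threshold 0.05. The difference between 18qE and 18qNE was fitted with day as a term. Control clones of days A to C were compared with day as a term. DESeq2 1.42.0 and limma 3.58.1 (voom) were alternatives. Displayed CPM used 1 set of TMM factors over 19 libraries. Differences between single libraries add a pseudocount of 0.5 CPM. Intervals from counts cover counting error only. The procedure was run on simulated counts with the same dispersion, a measure of spread, for all genes and both groups. That run cannot show how the test behaves where clones vary unequally, as they did here.

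The clone was the replicate, and p-values reflect only how these few clones vary. Clone numbers are names, and 18qE and control clones of the same number did not deviate together (correlation 0.06 of the clone 1 minus clone 2 differences), so they were not paired. The clones and gene lists were chosen with earlier results of these data known. Named genes were the 10 with the smallest p in each direction with a symbol, no overlap between groups and at least 5 CPM, since none passed the threshold; SMAD7, SMAD2, SMAD4 and MYC; up to 4 members of each list; 10 neighbours of SMAD7 on each side; and up to 5 genes per direction between the 18qE clones. List members named beyond these were chosen after their values were seen. Some genes that met the rule are not reported here, though they stay in the counts. None of the 40 lists had a member called by edgeR. The E7, HEK293 and chromatin samples were not analysed here.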

Additional observations from a re-analysis of the deposited data

How the results depend on the processing

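The count of called genes for 18qE against control was 0 with edgeR and stayed 0 with limma voom, RLE size factors, no scaling, no filter on low counts, a filter of 1 CPM in 2 libraries, the spread taken over 16 libraries of days A to D (752 genes at an unadjusted p under 0.05, lowest adjusted p 0.0938) and, as chosen after seeing the data, without the genes of the distal block of chromosome 1. DESeq2 called 20. With clone number as a replicate block the count was 0, with 447 genes at an unadjusted p under 0.05; the clone numbers pair nothing by design. Leaving out each replicate in turn gave 0 to 132 called genes; the lone library left in an arm is then assumed to vary like the other group. For the 18qE effect minus the 18qNE effect the count was 0, with RLE factors and with the CPM filter also 0, and 0 to 3 on leaving out each day D library. Among control clones of days A to C it was 1158, with RLE factors 1169, with the CPM filter 1162 and 308 to 1694 on leaving out a day, the lowest without day C. The cause of these shifts was not tested.

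Over 12 alternatives, the 20 genes with the smallest p gave 240 values, 0 of them with another sign and 39 past the threshold, in 17 genes. All 176 named genes gave 2104 values, of which 50 had another sign. With 2 clones a group, differences smaller than the intervals given were not resolvable, and genes under about 1 CPM rest on few reads.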
